A study of Mus musculus with 31 samples.

Results

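The genes described here encode parts of the motile cilium axoneme, together with Foxj1. They were chosen by name alone: all protein-coding genes of the deposited count table whose Ensembl release 94 symbols begin with Dnah, Dnai, Dnaaf, Cfap or Rsph and a digit, and Foxj1. The rule found 59 of the 54532 genes in the table: 31 Cfap, 15 Dnah, 8 Rsph and 4 Dnaaf genes and Foxj1. No symbol matched the Dnai part of the rule, because that release names the intermediate chains Dnaic1 and Dnaic2, which are reported only beside the members. A filter on low counts kept 57 of the 59, and Rsph6a, a radial spoke gene of testis, and Cfap97d1 did not pass it. The members lie on 17 chromosomes, 8 of them on chromosome 1 and 7 each on chromosomes 5 and 11.

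Ependymal cells line the brain ventricles and carry tufts of motile cilia whose beat moves cerebrospinal fluid over the ventricle wall. Such a cilium holds a ring of doublet microtubules around a central pair. Outer and inner dynein arms on the doublets drive sliding, radial spokes pass signals from the central pair to the arms, and preassembly factors build the arms in the cytoplasm before they enter the cilium. Foxj1 and the RFX factors, which bind a palindromic site called the X-box, switch on the genes for these parts. Loss of Dnah5, Cfap54, Cfap221 or Cfap43 causes hydrocephalus in mice. Primary cilia, which most neurons and glia carry, lack dynein arms and spokes and do not beat, although both kinds need intraflagellar transport.

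The promoters are shown because the X-box is the site that the RFX factors bind. RefSeq promoter windows of GRCm38.p6, from 250 bases before to 50 bases after the gene start, were available for 46 of the 59 members. The motif searched was GTTNCCNNGGNAAC, which is its own reverse complement, so both strands are covered by one search. It matched exactly in 1 of the 46 members (2.17%), against 0.529% of 27025 genes with a window. With at most 1 mismatch among its 10 fixed letters it matched in 8 members (17.4%), against 2.89% of all genes. The 7 of these whose match lies before the start site are printed 5′ to 3′ on the gene's strand, and capitals mark the match.
Cfap298: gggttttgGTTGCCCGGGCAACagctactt
Cfap44: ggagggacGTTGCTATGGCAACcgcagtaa
Cfap45: gttcttggGTTGCTATGGTAACgcgtc
Cfap206: cgcgttccGTTTCCACGGTTACgcgactgc
Cfap97d2: aaggcctgGGTGCCATGGCAACcgtcacat
Dnaaf2: tcccaggcGTTACTATGGCAACaaa
Dnaaf5: tagcgccgGTTCCCTTGGAGACaggc

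The exact match, in Cfap298 (chr16:90935016-90935045, minus strand), lay 188 to 175 bases before the start. Its window overlapped a 5′ UTR exon of another Cfap298 transcript in GENCODE M21 and an exon of the plus-strand long non-coding RNA 4930534H18Rik. The remaining 6 matches all lay within 30 bases of the start. Those of Cfap44 (chr16:44394764-44394793, plus strand), Cfap206 (chr4:34730208-34730237, minus strand) and Cfap97d2 (chr8:13705854-13705883, plus strand) overlapped no annotated exon. The windows of Cfap45 (chr1:172521103-172521129, plus strand) and Dnaaf5 (chr5:139150209-139150234, plus strand) overlapped 5′ UTR exons of their own genes. That of Dnaaf5 did so only in part, since the gene begins at base 139150223. The window of Dnaaf2 (chr12:69198430-69198454, minus strand) overlapped an exon of the plus-strand long non-coding RNA 9330151L19Rik. The core GTTGCC, on either strand and counting those inside full matches, was in 17 of the 46 windows (36.96%), against 14.1% of all genes. The forkhead motif GTAAACA, on either strand, was in 3, those of Cfap20, Cfap43 and Dnah17 (6.52%), against 4.05% of all genes. These matches describe the letters of the windows and are not evidence of binding.

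RNA came from the hypothalamus of C57BL/6J mice aged 4 months whose dams had eaten either a high-fat-high-sugar (obesogenic) or a control diet while pregnant and nursing. Weaned at postnatal day 21 onto chow, every offspring, controls included, then ate the obesogenic diet for 4 weeks starting at 3 months. The groups were 7 female and 8 male offspring of obesogenic-diet dams (OB) and 8 female and 8 male offspring of control-diet dams (CON). The labels name no animals, litters or batches, so p-values measure only the spread between these libraries, and litter mates may be among them.

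The 31 libraries held 23118626 to 38547288 counted read pairs each, so that 1 pair was worth 0.0259 to 0.0433 CPM (counts scaled to a fixed library size). All levels below are CPM scaled by edgeR's TMM factors. Libraries OB female 3, CON female 5 and CON male 6 stood apart by their correlations with all others. In CON female 7 and CON male 7, genes that mark sex went against the label. The contrasts below were run over all 31 libraries and over the 26 others, a subset chosen after seeing the data.

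The label ependymal was checked against other markers. Ccdc153, an ependymal marker, averaged 24.9 ± 7.57 CPM in OB females, 21.8 ± 10.6 CPM in CON females, 21.2 ± 5.84 CPM in OB males and 32.2 ± 14.6 CPM in CON males (SD, n = 7, 8, 8 and 8). Tmem212, another ependymal marker, averaged 12.2, 11.2, 10.9 and 14.5 CPM in the same groups. Both were lowest in CON female 5, at 0.0811 CPM for Ccdc153 and 0.270 CPM for Tmem212. Ccdc153 was highest in CON male 6, at 57.5 CPM. Ttr, the defining transcript of choroid plexus epithelium, which also carries motile cilia, averaged 2.39, 2.79, 1.76 and 3.66 CPM. These are bulk tissue values, so fewer ependymal cells and less RNA per cell cannot be told apart.

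Per kilobase of exon, levels over the 26 libraries spanned from none to 35.97 CPM per kb, and 34 members reached 1 CPM per kb. The 3 highest were Cfap36, which binds the small GTPase ARL3 and is not limited to motile cilia (35.97 CPM per kb), the spoke-head gene Rsph9 (18.8 CPM per kb) and the arm preassembly gene Cfap298 (16.3 CPM per kb). Rsph1, another spoke-head gene, followed with 12.8 CPM per kb and Foxj1 with 12.5 CPM per kb. Heavy chains were lower per length: of the outer arm chains, Dnah9 had 0.876, Dnah5 0.722 and Dnah11 0.468 CPM per kb. The inner arm chain Dnah1 was the exception at 4.38 CPM per kb. The lowest were Cfap97d1, with 2 pairs in all 31 libraries, Dnah17 (0.0406 CPM per kb), a chain known from sperm, and Rsph6a (0.0614 CPM per kb, 148 pairs in all).

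Within each role the order was wide. Among preassembly genes, Cfap298 and Cfap300 (10.04 CPM per kb) stood above Dnaaf5 (2.85), Dnaaf3 (1.83), Dnaaf1 (0.625) and Dnaaf2 (0.341 CPM per kb). Among doublet lumen proteins, which line the inside of the microtubules, Cfap20 (8.89 CPM per kb) was highest and Cfap53 (0.837 CPM per kb) lowest. The central pair genes were closer together, with Cfap65 at 2.48, Cfap46 at 2.17, Cfap54 at 1.15 and Cfap221 at 0.526 CPM per kb. Cfap43 (1.04 CPM per kb) and Cfap44 (1.41 CPM per kb), which tether inner arm motors to the doublet in Tetrahymena, were close in level. Genes with near copies are uncertain, since shared reads were not counted: Dnah7a, Dnah7b and Dnah7c share 30.3% to 38.8% of their 50-base stretches, and Rsph3a and Rsph3b 73.4% to 74.0%.

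The members differed in how much they varied between libraries. The coefficient of variation of the CPM over the 26 libraries ran from 7.51% to 53.8% among the 57 tested, with a median of 24.4%. It was lowest for Cfap36 (7.51%), Cfap298 (9.22%) and Cfap300 (11.1%), and highest for Cfap99 (53.8%), Dnah17 (52.9%) and Dnah14 (44.0%). These last 3 are also low in level, at 0.660, 0.0406 and 0.0840 CPM per kb. Over all 31 libraries it was lowest for Cfap36 (8.12%), Cfap97 (13.6%) and Cfap20 (14.1%), and highest for Cfap157 (81.6%), Cfap65 (58.6%) and Dnaaf2 (57.4%). Over the 26, Foxj1 varied by 25.2%, Dnah5 by 21.8% and Rsph4a, a spoke-head gene, by 16.3%.

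**Figure D1:**
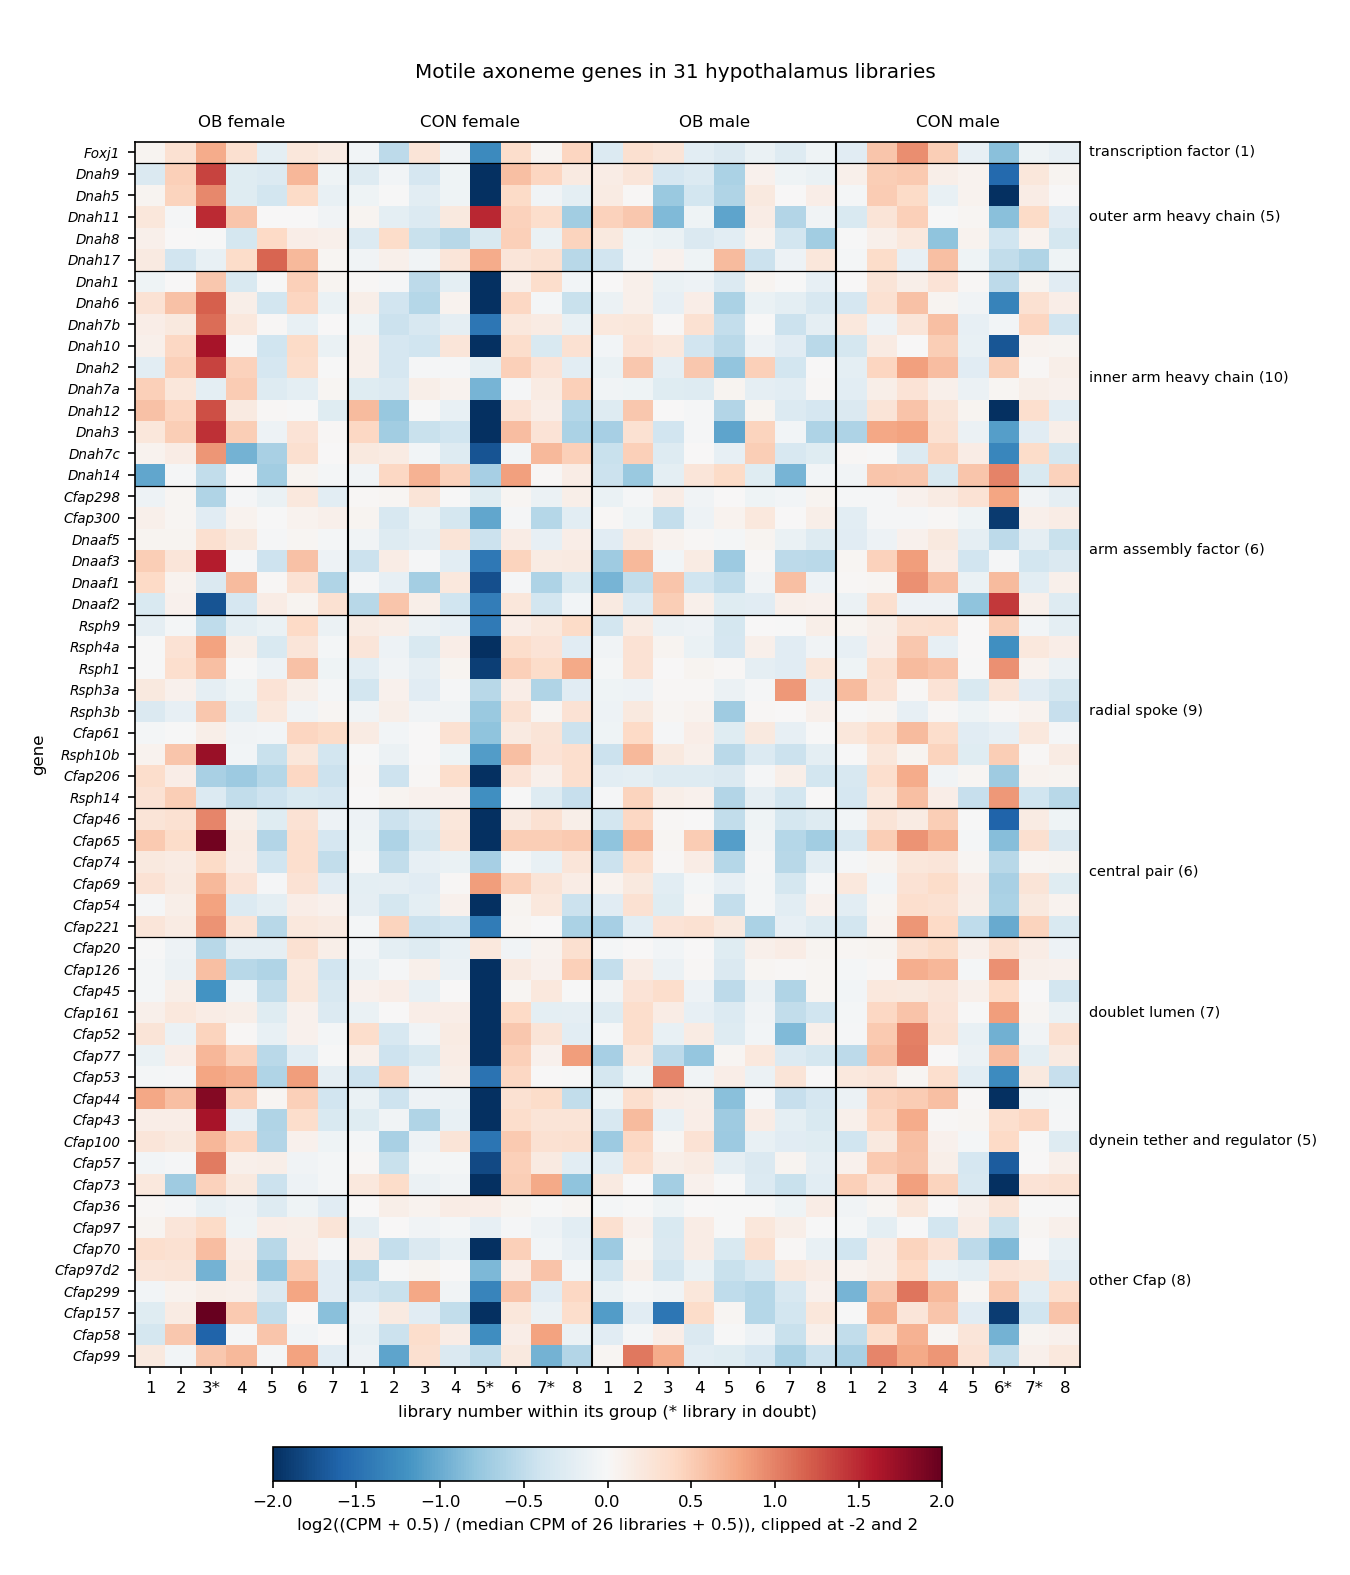
Heat map of the 57 tested members (down, grouped by role) in the 31 libraries (across, by group), coloured by the log2 ratio of the CPM to the member's median over 26 libraries, with 0.5 CPM added and the scale ending at 2 in each direction; asterisks mark the 5 libraries set apart. Some columns are mostly of one colour, as in CON female 5, where the members' median was 0.215 of their own medians. Others are mixed, as in OB male 3, where 27 of the 57 were above their own medians.

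The members tended to be high or low together within a library. Each member's CPM was divided by its median over the 26 libraries, and the median of these ratios was taken per library. Among the 26 it ran from 0.795 in OB male 5 to 1.41 in CON male 3. CON male 3 held the highest value for 24 of the 57 tested members, and OB male 5 the lowest for 19. Of the 57, 51 were above their own medians in CON male 3, 50 in CON male 2 and 49 in CON female 6. In OB male 5 only 10 were above and in OB male 1 only 12, so both ends of the range lay among male libraries. Other libraries were split, such as OB male 3 with 27 above and 30 below, and OB male 4 with 32 and 25.

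Other gene lists were set beside them, and not all had their ends in the same libraries. The same per-library median ran from 0.824 to 1.43 for 49 other axoneme genes, such as Hydin and Spag17 of the central pair. It again was lowest in OB male 5 and highest in CON male 3. For 17 other ependymal markers it ran from 0.655 in OB male 1 to 1.37 in CON male 3. For 36 genes of primary cilia, intraflagellar transport and the BBSome, it ran only from 0.945 to 1.05. For 12 astrocyte markers it ran from 0.782 in OB male 7 to 1.30 in CON female 3, and for 16 tanycyte markers from 0.736 in OB male 7 to 1.28 in CON male 4. Whether the share of ependyma in the dissected tissue differed between libraries was not tested.

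**Figure D2:**
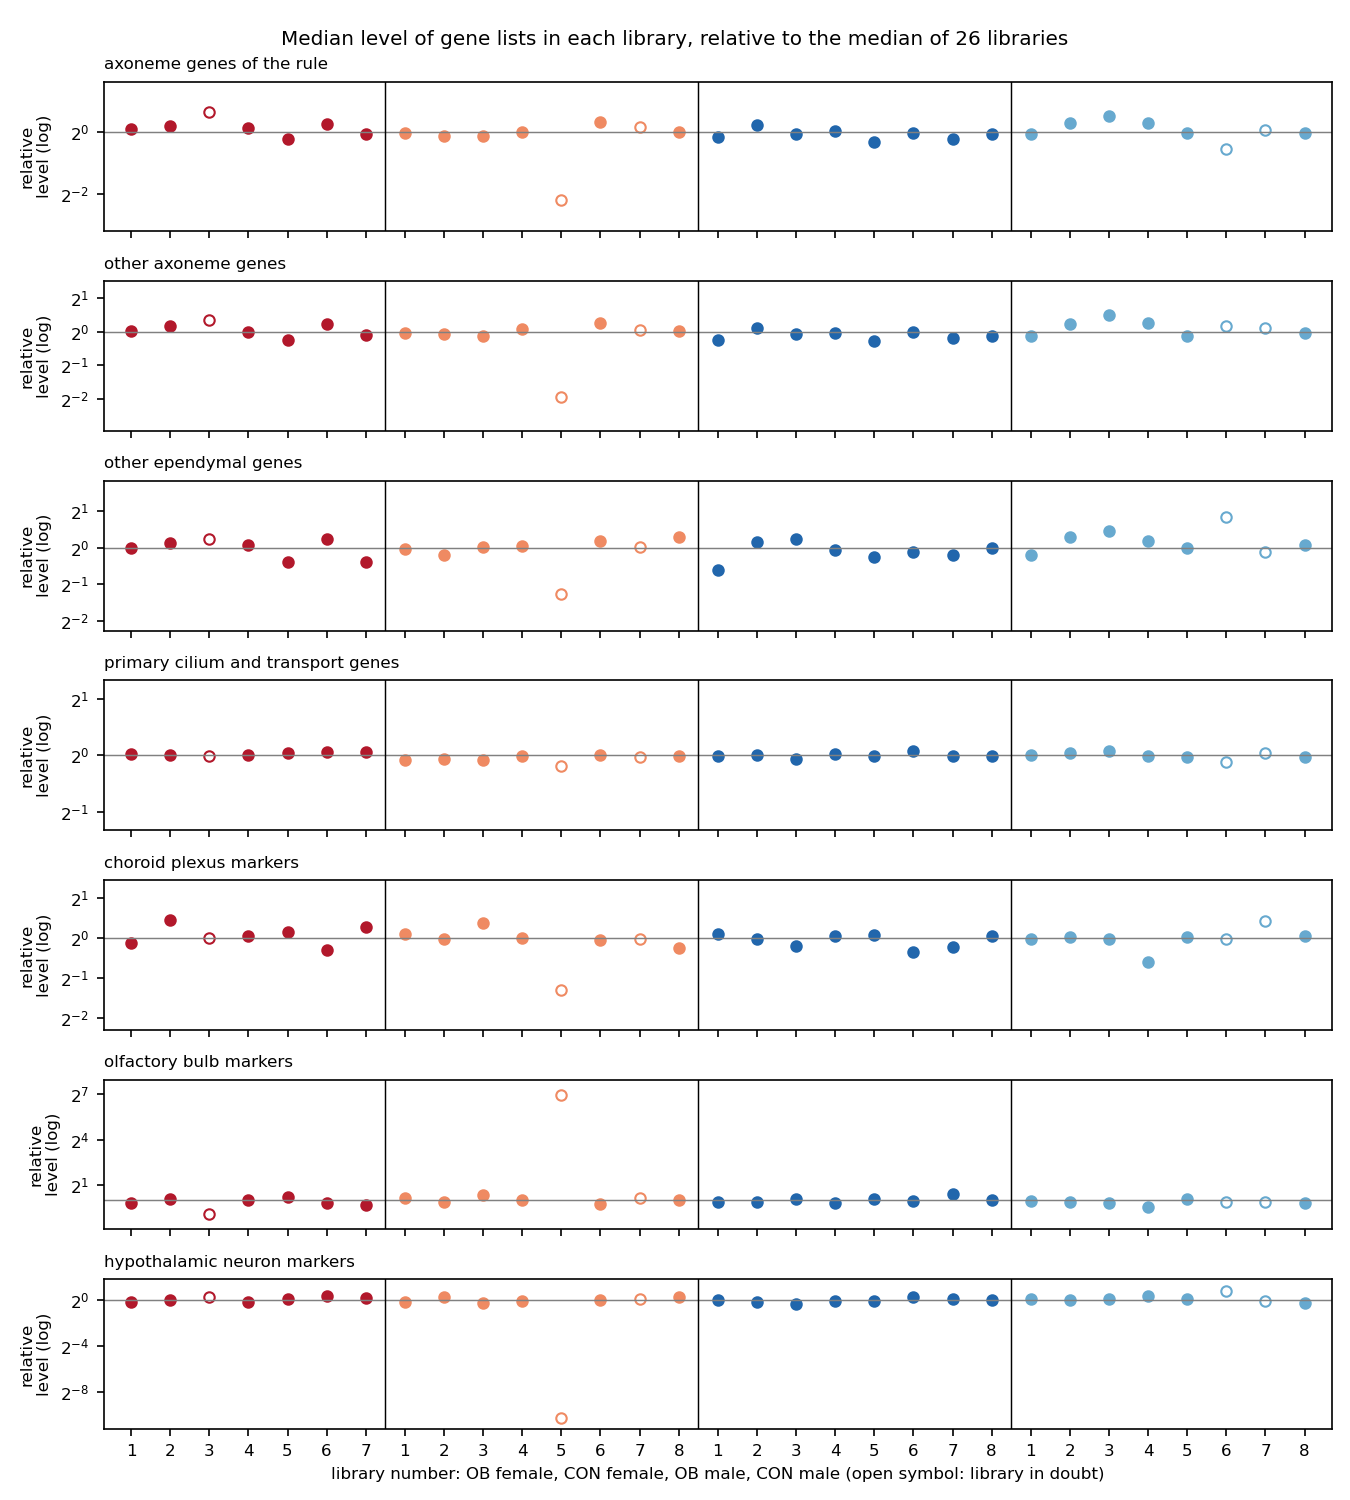
Median level of each of 7 gene lists relative to the genes' own medians over 26 libraries (vertical, log axis), in each of the 31 libraries (horizontal, by group), with the libraries set apart as open symbols. The axoneme members run from 0.795 to 1.41 among the 26, and the primary cilium list from 0.945 to 1.05.

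Summed over all 59 members, levels were 803 ± 155 CPM in OB females, against 697 ± 140 CPM in CON females (SD, n = 7 and 8). In males they were 704 ± 68.6 CPM in OB and 775 ± 101.4 CPM in CON (SD, n = 8 each). Over the 26 libraries the sums were 752 ± 81.1 CPM in OB females and 733 ± 68.2 CPM in CON females (SD, n = 6 each). In males the OB sum stayed at 704 CPM, and the CON sum was 796 ± 105 CPM (SD, n = 8 and 6). The OB and CON ranges overlapped in both sexes. Members of high level weigh most in these sums, such as Cfap36, Dnah1, Cfap97 and Cfap20 with 98.7, 57.1, 42.0 and 39.6 CPM over the 26. In CON female 5, with a sum of 386 CPM, Cfap36 alone had 108 CPM.

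The first comparison asked whether the maternal diet changed these genes in female offspring. edgeR's quasi-likelihood test called 0 members at an adjusted p of 0.05, and 0.0% of the 18743 genes tested. Of the 57 members tested, 46 had a log2 fold change (OB minus CON) above 0, against 47.5% of all genes, with a median of 0.27 against -0.013 for all genes. At an unadjusted p under 0.05, 4 members were higher (3.37% of all genes) and 2 lower (4.75% of all genes). DESeq2 also called 0 members and 0.032% of all genes, with 5 members higher (3.75% of all genes) and 2 lower (4.37% of all genes) at an unadjusted p under 0.05. Over the 26 libraries 3 members were higher (3.87% of all genes) and 3 lower (4.53% of all genes) at that p. There 37 members were above 0 (48.8% of all genes), with a median log2 fold change of 0.052, so the size of the shift depended on the libraries set apart.

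Foxj1, the transcription factor among the members, had 26.3, 35.4 and 51.0 CPM in OB females (lowest, median and highest), against 12.2, 30.1 and 41.1 CPM in CON females. The highest OB value was OB female 3 and the lowest CON value CON female 5, and the groups overlapped. Its log2 fold change was 0.28 (95% interval -0.15 to 0.71, adjusted p = 0.714), and 0.052 over the 26 libraries.

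Of the 15 dynein heavy chains, 14 were above 0 over all libraries and 13 over the 26. Dnah5, an outer arm chain, had 8.53, 11.7 and 22.3 CPM in OB females, against 1.76, 10.53 and 14.7 CPM in CON females. The highest and lowest of these were again OB female 3 and CON female 5. The log2 fold change of Dnah5 was 0.42 (-0.19 to 1.03), and 0.075 over the 26 libraries. All 5 outer arm chains were above 0, with a median of 0.32, and of 0.075 over the 26 libraries. Of the 10 inner arm chains 9 were above 0 (median 0.45), and 8 over the 26 (median 0.14). Dnah7b had the smallest p among them, with 9.96, 12.2 and 24.4 CPM in OB females, against 3.73, 9.82 and 12.8 CPM in CON females. Its log2 fold change of 0.51 (0.10 to 0.92, adjusted p = 0.555) was 0.23 over the 26 libraries (-0.08 to 0.54). Dnah9, Dnah11, Dnah2, Dnah6, Dnah7a, Dnah10 and Dnah12 had log2 fold changes between 0.11 and 0.67 over all 31 libraries and between 0.013 and 0.29 over the 26, each with an interval that held 0 over all 31.

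Dnah14, grouped here with the inner arm chains and low in level, stood on the other side. It had 0.345, 1.20 and 1.31 CPM in OB females, against 0.595, 1.62 and 2.56 CPM in CON females. Only CON female 5 of the CON libraries lay under 1 CPM, and 3 of the 7 OB libraries did. The log2 fold change was -0.77 (-1.47 to -0.07), and -0.91 over the 26 libraries (-1.60 to -0.22), with an adjusted p of 0.592 and 0.543.

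Among preassembly genes, 4 of 6 were above 0, with a median of 0.24, and of 0.089 over the 26 libraries. Dnaaf1, needed for both kinds of arm, had 0.917, 1.76 and 2.84 CPM in OB females, against 0.135, 1.34 and 2.004 CPM in CON females. Dnaaf1 had a log2 fold change of 0.60 (-0.13 to 1.33), and 0.41 over the 26 libraries. Dnaaf3 had a log2 fold change of 0.59 (-0.02 to 1.20), and 0.14 over the 26 libraries.

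The radial spoke genes were split. Of the 9 tested, 7 were above 0 over all libraries (median 0.14) and 3 over the 26 (median -0.068). Rsph1 had 12.5, 13.3 and 20.6 CPM in OB females, against 3.27, 13.4 and 23.1 CPM in CON females, with medians that were nearly the same. Rsph9 had a log2 fold change of -0.082 (-0.41 to 0.25), and -0.13 over the 26. Rsph4a had one of 0.31 (-0.35 to 0.97), and 0.026 over the 26.

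All 6 central pair genes were above 0, with a median of 0.42, and of 0.13 over the 26 libraries. Cfap54 had 14.1, 18.2 and 30.5 CPM in OB females, against 2.38, 15.04 and 19.96 CPM in CON females, and the groups overlapped. Its log2 fold change was 0.40 (-0.08 to 0.88), and 0.14 over the 26. Cfap46, Cfap65 and Cfap221 had log2 fold changes of 0.44, 0.60 and 0.61, each with an interval that held 0. They were 0.15, 0.036 and 0.30 over the 26 libraries. Of these 3 Cfap65 moved most, with 70.0 CPM in OB female 3 and 0.297 CPM in CON female 5. The doublet lumen genes went both ways over the 26 libraries. There Cfap126 had -0.33 (-0.65 to -0.0048, adjusted p = 0.588), Cfap52 -0.095 and Cfap20 0.062.

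Among dynein tethers, Cfap44, whose promoter holds an X-box match, had 8.35, 15.6 and 40.6 CPM in OB females, against 0.811, 10.03 and 14.4 CPM in CON females. OB female 3 was the highest and CON female 5 the lowest. In the other OB libraries, 5 of 6 lay above 11 CPM, and of the other CON libraries 2 of 7 did. For Cfap44 the log2 fold change of 0.96 (0.08 to 1.83) was 0.54 over the 26 libraries (0.14 to 0.93, adjusted p = 0.543). Cfap43 had 0.52 (-0.08 to 1.11) and a log2 fold change near 0 over the 26.

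The smallest p of any member belonged to Cfap36, the member of highest level per length. It had 82.7, 91.6 and 99.7 CPM in OB females, against 97.8, 103 and 109 CPM in CON females. Only OB female 1 reached the CON range. The log2 fold change was -0.19 ± 0.060 (SE, adjusted p = 0.523), and -0.19 over the 26 libraries. Cfap97 had 38.7, 45.3 and 53.9 CPM in OB females, against 35.4, 38.7 and 41.5 CPM in CON females, and its log2 fold change was 0.27 (0.08 to 0.45, adjusted p = 0.524), and 0.21 over the 26. Cfap99 was the last of those under 0.05, with 0.88 (0.08 to 1.68, adjusted p = 0.598), and 0.65 over the 26 (-0.19 to 1.49).

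**Figure D3:**
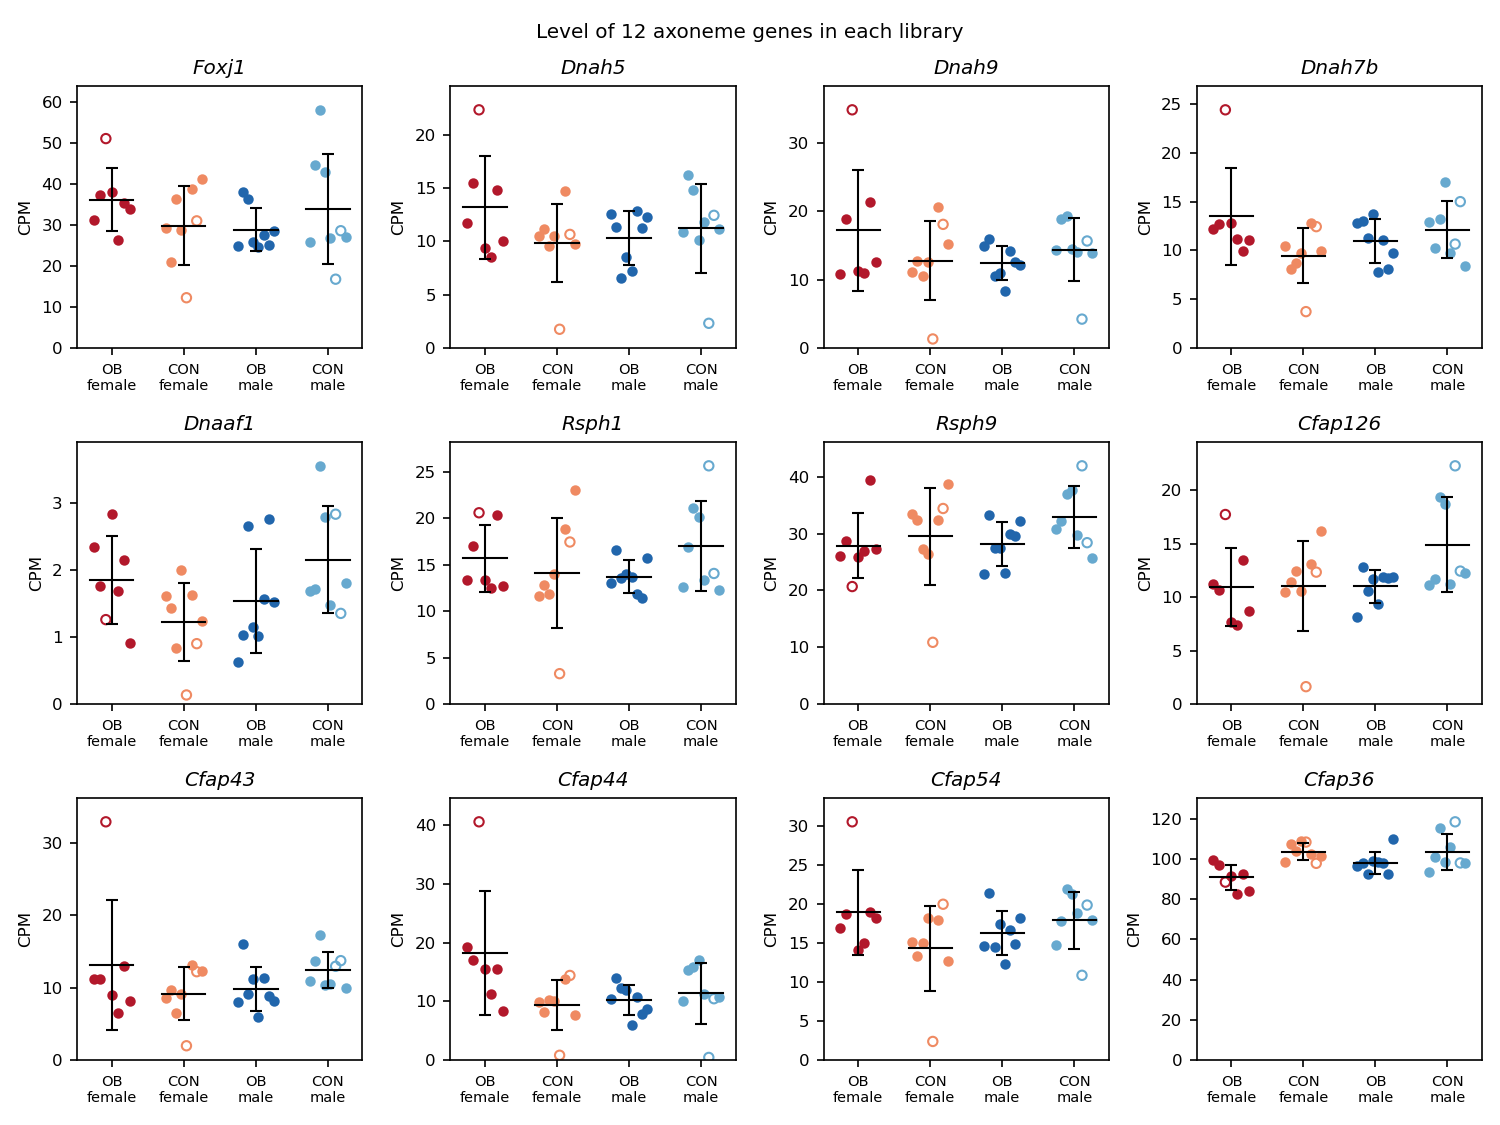
CPM (vertical) of 12 members in each library, by group (horizontal), with the mean and SD of each group over all its libraries; open symbols are the 5 libraries set apart. For Dnah5 the open symbol of OB female 3 lies at 22.3 CPM and that of CON female 5 at 1.76 CPM, above and below the other female libraries.

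The second comparison was the maternal diet in male offspring. edgeR called 0 of the 57 members and 0.0% of the 18743 genes tested, and DESeq2 called 0 members and 0.00534% of all genes. With edgeR 0 members were higher (0.907% of all genes) and 1 lower (2.54% of all genes) at an unadjusted p under 0.05. With DESeq2 these were 0 (1.06% of all genes) and 2 (3.16% of all genes). The log2 fold change (OB minus CON) was below 0 for 50 of the 57, against 49.9% of all genes, with a median of -0.18 against 0.00038 for all genes. Over the 26 libraries 51 were below 0 (48.0% of all genes), with a median of -0.22. There 12 members were lower (1.48% of all genes) and 0 higher (1.22% of all genes) at an unadjusted p under 0.05. The count of lower members changed with the libraries left out. The smallest adjusted p of any member was 0.940 over all libraries and 0.9996 over the 26.

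Foxj1 had 24.6, 26.8 and 38.0 CPM in OB males, against 16.8, 27.8 and 58.0 CPM in CON males. The lowest CON value was CON male 6, and the highest was CON male 3. For Foxj1 the log2 fold change was -0.23 (-0.65 to 0.19), and -0.38 over the 26 libraries (-0.73 to -0.03), where CON males had 25.9, 34.9 and 58.0 CPM. Of the outer arm chains, Dnah9 had 8.40, 12.4 and 15.9 CPM in OB males, against 4.23, 14.4 and 19.4 CPM in CON males. Its log2 fold change of -0.21 (-0.86 to 0.44) was -0.35 over the 26 libraries (-0.69 to -0.01). Dnah5 had -0.12 (-0.71 to 0.46), and -0.28 (-0.60 to 0.04) over the 26.

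Dnah14 was the only member under 0.05 over all libraries. It had 0.409, 1.002 and 1.77 CPM in OB males, against 0.908, 1.97 and 2.95 CPM in CON males, and its log2 fold change was -0.76 (-1.43 to -0.09). It was -0.71 over the 26, so Dnah14 had a log2 fold change of about the same size in both sexes. Dnah6, Dnah7a, Dnah7b, Dnah2, Dnah10 and Dnah12 lay between -0.24 and -0.075 over all libraries, each with an interval that held 0, and between -0.30 and -0.13 over the 26.

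The doublet lumen genes held 4 of the 12 over the 26 libraries, namely Cfap52, Cfap161, Cfap126 and Cfap77. Cfap52 had 3.62, 6.88 and 9.21 CPM in OB males, against 6.36, 8.90 and 14.8 CPM in the 6 CON males kept, and the groups overlapped. There its log2 fold change was -0.47 (-0.83 to -0.11), and -0.29 over all libraries. Cfap126, which also places the basal bodies, had 8.16, 11.7 and 12.8 CPM in OB males, against 11.2, 11.98 and 19.4 CPM in CON males kept. Most OB values lay within the CON range, and none above it. There its log2 fold change was -0.36 (-0.66 to -0.06), and -0.44 over all libraries. In females Cfap126 was also lower over the 26, at -0.33.

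The dynein tether genes Cfap73 and Cfap44 were also among them, with log2 fold changes of -0.64 and -0.39 over the 26 (-0.43 and -0.16 over all libraries), as was the spoke gene Cfap206 (-0.38, and -0.27 over all), whose promoter holds an X-box match. Cfap157 (-0.77, and -0.49 over all) and Cfap299 (-0.68, and -0.62 over all), both known from sperm, complete the 12 with Foxj1, Dnah9 and Dnah14. The central pair genes were all below 0 in males, with a median of -0.15, and of -0.25 over the 26. Of the spoke genes, 8 of 9 were below 0 (median -0.17), and 8 over the 26 (median -0.19). Rsph1 had -0.31 (-0.76 to 0.13) and Rsph9 -0.22 (-0.54 to 0.10) over all libraries, and -0.23 and -0.19 over the 26. Of the preassembly genes 4 of 6 were below 0 over all libraries and 3 over the 26, there with Dnaaf1 at -0.50 (-1.10 to 0.10) and Dnaaf2 at 0.28 (-0.30 to 0.86). Over all libraries Dnaaf1 had -0.48 and Dnaaf2 -0.20.

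**Figure D4:**
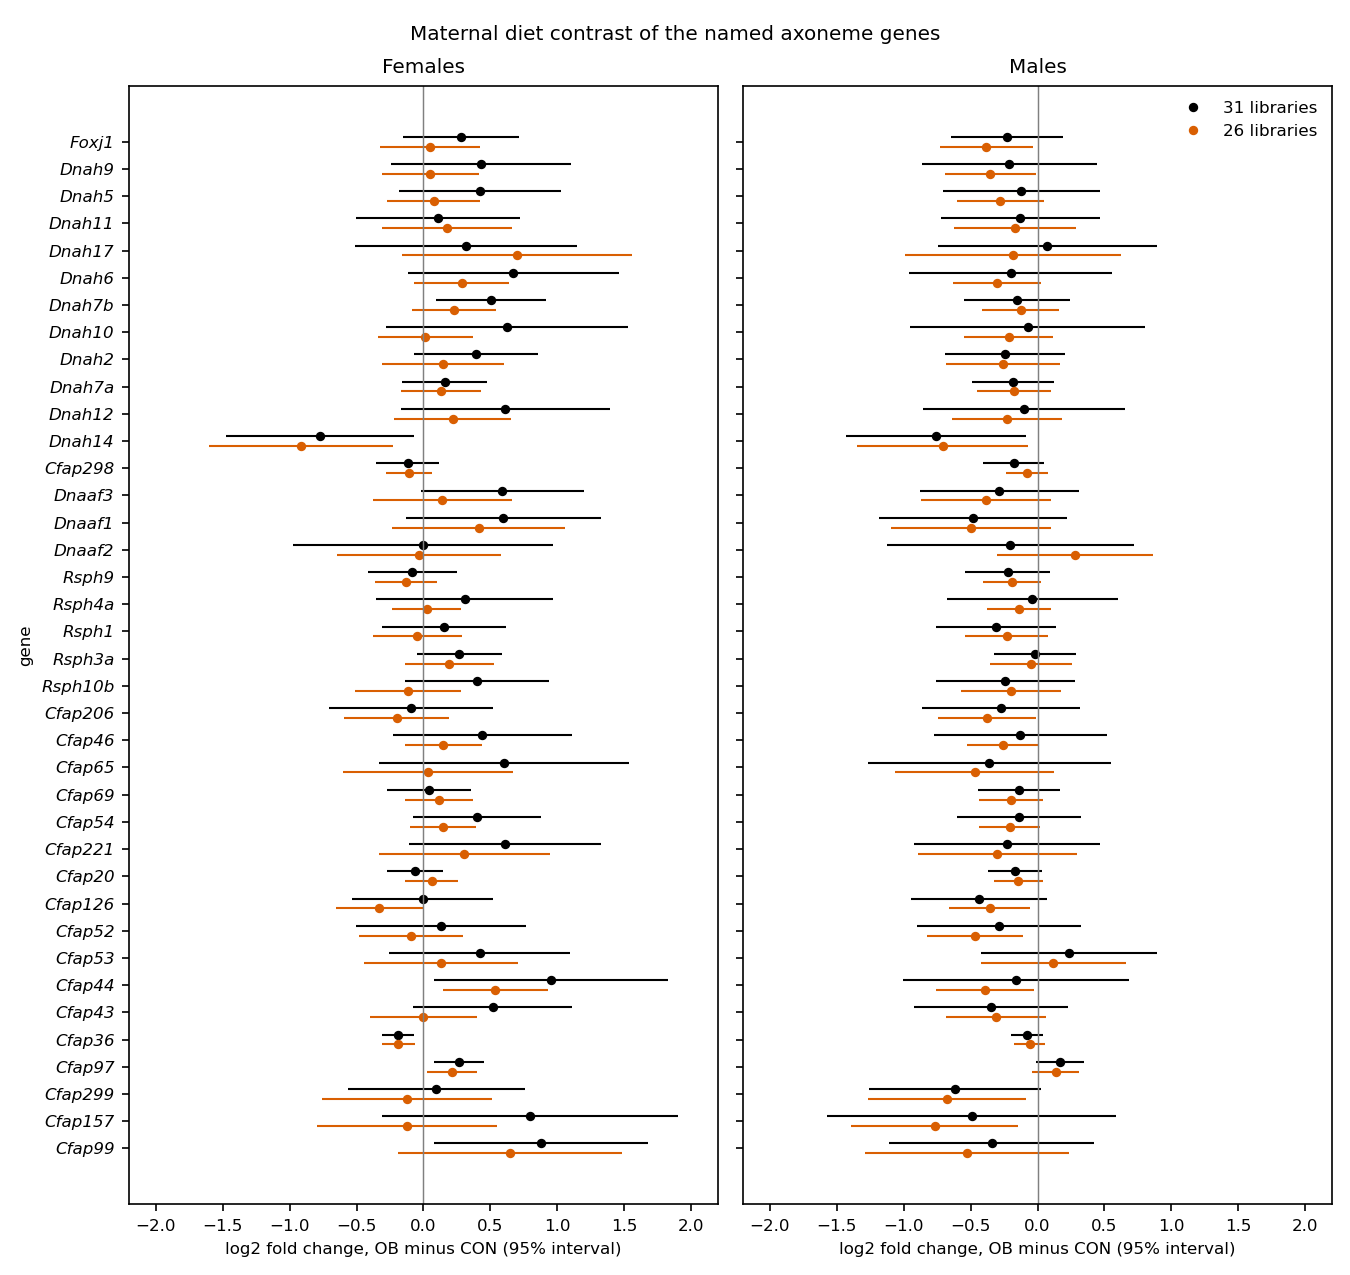
Log2 fold change, OB minus CON (horizontal), with its 95% interval for the named members that were tested (down), in females (left) and males (right). Black is over all 31 libraries and orange over the 26. Counted over all 57 tested members, drawn here or not, 50 were below 0 in males and 46 above 0 in females over all libraries. In females 40 of the 57 were closer to 0 over the 26 than over all libraries.

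Whether the diet contrast differed between the sexes was tested by the interaction, females minus males. edgeR called 0 members, and 0.0% of all genes, and DESeq2 called 0 members and 0.032% of all genes. At an unadjusted p under 0.05, 5 members were above 0 in edgeR (1.3% of all genes) and 0 below (2.33% of all genes). In DESeq2 these were 6 (1.62% of all genes) and 0 (2.05% of all genes). The log2 difference was above 0 for 54 of 57, against 51.0% of all genes, and its median was 0.42. Over the 26 libraries it was above 0 for 49 (48.2% of all genes), with a median of 0.31, and at an unadjusted p under 0.05 there were 7 members above 0 (1.52% of all genes) and 0 below (1.96% of all genes). Since the interaction uses the same libraries as the 2 diet contrasts, it adds no separate evidence.

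Over all 31 libraries the 5 members were Dnah7b (0.66), Cfap99 (1.22), Dnaaf1 (1.08), Cfap43 (0.86) and Dnaaf3 (0.87), as log2 differences. These 5 had 0.36, 1.18, 0.91, 0.31 and 0.53 over the 26 libraries. There the 7 members under an unadjusted p of 0.05 were Cfap44, Dnah6, Dnah3, Cfap46, Cfap54, Cfap99 and Dnaaf1. The p of Cfap44 was smallest, with a log2 difference of 0.93 (0.39 to 1.47, adjusted p = 0.9999). Over the 26 its levels were 8.35, 15.5 and 19.2 CPM in OB females, against 7.72, 10.03 and 13.8 CPM in CON females. In males they were 5.93, 10.6 and 13.97 CPM in OB and 10.1, 13.3 and 17.1 CPM in CON. The medians thus lay in opposite orders in the sexes, with overlapping ranges in each. Foxj1 had a log2 difference of 0.51 (-0.09 to 1.11), and 0.43 over the 26.

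Females were also set against males within each maternal diet, from the same libraries. Among OB offspring, edgeR called 0 members and 0.0% of all genes. That fit took its spread from all groups, including CON female 7 and CON male 7, whose sex genes went against the label. Without those libraries edgeR called 9 genes (0.0484% of all genes) but 0 members, and the members' median was also 0.24. Over all libraries 47 of 57 log2 fold changes (female minus male) were above 0, against 48.7% of all genes, with a median of 0.24. At an unadjusted p under 0.05, 1 member was higher in edgeR (2.04% of all genes), and 2 in DESeq2 (2.38% of all genes), which called 0 members and 0.064% of all genes. The 1 was Dnaaf3, at 0.68 (0.07 to 1.29), and 0.36 over the 26. Over the 26 libraries 48 members were above 0 (48.4% of all genes), with a median of 0.12, and without OB female 3 alone the median was also 0.12. There Cfap44 (0.51), Dnah7a (0.30) and Dnah6 (0.35) were higher at an unadjusted p under 0.05 (2.62% of all genes), and 14 genes but 0 members were called (0.0749% of all genes).

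Among CON offspring the order was the other way. edgeR again called 0 members and 0.0% of all genes, and DESeq2 0 members and 0.00534% of all genes. Both fits held CON female 7 and CON male 7 under labels that their sex genes went against. Without those libraries edgeR called 10 genes (0.0538% of all genes) but 0 members, and the members' median was -0.24. Over all libraries 49 of 57 log2 fold changes (female minus male) were below 0, against 51.1% of all genes, and the median was -0.19. Without CON female 5 alone the median was -0.057. At an unadjusted p under 0.05, 3 members were lower in edgeR (1.07% of all genes) and 3 in DESeq2 (1.32% of all genes). In edgeR these were Cfap99 (-0.94), Dnaaf1 (-0.81) and Rsph3a (-0.32), with -0.95, -0.57 and -0.24 over the 26. Over the 26 libraries 45 members were below 0 (49.3% of all genes), with a median of -0.17. There Cfap54 (-0.29), Cfap99 (-0.95), Cfap44 (-0.43) and Cfap20 (-0.20) were lower at an unadjusted p under 0.05 (1.03% of all genes), and 11 genes but 0 members were called (0.0588% of all genes).

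The other axoneme genes gave similar counts. In males, 42 of 49 were below 0 with a median log2 fold change of -0.18, and 41 over the 26 libraries with a median of -0.22. Of these, 1 was lower at an unadjusted p under 0.05 over all libraries (2.54% of all genes) and 10 over the 26 (1.48% of all genes). In females 36 of 49 were above 0 (median 0.14), and 27 over the 26 (median 0.017). Both lists thus lay below 0 in males with and without the libraries set apart, and above 0 in females mostly with them.

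The remaining ependymal markers were all below 0 in males, 17 of 17, with a median of -0.33, and 16 of 17 over the 26 libraries (median -0.26). Ccdc153 was the lowest at -0.60 over all libraries. In females 8 of 17 were above 0 (median -0.030), and 1 over the 26 (median -0.12). For primary cilium genes in males 19 of 36 were below 0 (median -0.0030). Of 12 astrocyte markers 8 were below 0 (median -0.10), of 16 tanycyte markers 11 (median -0.10), and of 15 regulators of multiciliated cell formation 8 (median -0.016). Ttr had -1.05 and was the lowest of the choroid plexus list, in which 8 of 16 were below 0. The primary cilium list was not flat in females. Over the 26 libraries its per-library median there averaged 1.02 ± 0.017 in OB and 0.973 ± 0.026 in CON (SD, n = 6 each). These ran from 1.004 to 1.05 in OB and from 0.945 to 0.999 in CON, so the ranges did not overlap. In both diet contrasts edgeR called no gene of these lists, over all libraries or over the 26, where it called 0.0% of all genes. The lists were not looked up among the genes that DESeq2 called. The part of tissue make-up in the members' values was not tested. The intermediate chain genes Dnaic1 and Dnaic2, outside the rule, had -0.31 and -0.094 in males, and -0.024 and 0.20 in females.

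The libraries set apart differed from each other in what they did to the members. In CON female 5, the median ratio to the median of the 6 CON females kept was 0.211, with 41 of the 57 under 0.5. Cfap157, Cfap73, Dnah3 and Dnah10 were at 0 there, which allows up to 3 pairs, and the inner arm chain Dnah6 had 0.162 CPM. Dnah11 (3.12), Dnah17 (2.22), Cfap69 (1.92), Cfap20 (1.26) and Cfap36 (1.05) alone had ratios above 1. In the same library the median ratio was 35.3 for 11 olfactory bulb markers and 0.000808 for 16 hypothalamic neuron markers. Pmch, the melanin-concentrating hormone gene of the lateral hypothalamus, had 0.0270 CPM there, and Agrp, Sim1 and Nkx2-1 were at 0. So its markers went against the labelled tissue. The other axoneme genes had a median ratio of 0.242 there and the primary cilium genes 0.907.

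In OB female 3 and CON male 6 the ratio differed with transcript length. In OB female 3 the median was 2.03 over the 21 members longer than 8 kb and 1.37 over the 36 others, against 1.08 and 0.967 for all protein-coding genes tested. In CON male 6 it was 0.523 over the longer members and 0.985 over the others, against 0.670 and 1.04 for all genes. The outer arm chain Dnah5, among the longer ones, had 22.3 CPM in OB female 3 and 2.31 CPM in CON male 6. In CON male 6 the other ependymal markers had a median ratio of 1.67, with 15 of 17 above 1, where the members had 0.662. The numbers of genes with a read, 18513 in OB female 3 and 18734 in CON male 6, were also low, where each of the remaining libraries had 21311 to 22918. Whether RNA quality differed was not tested.

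**Figure D5:**
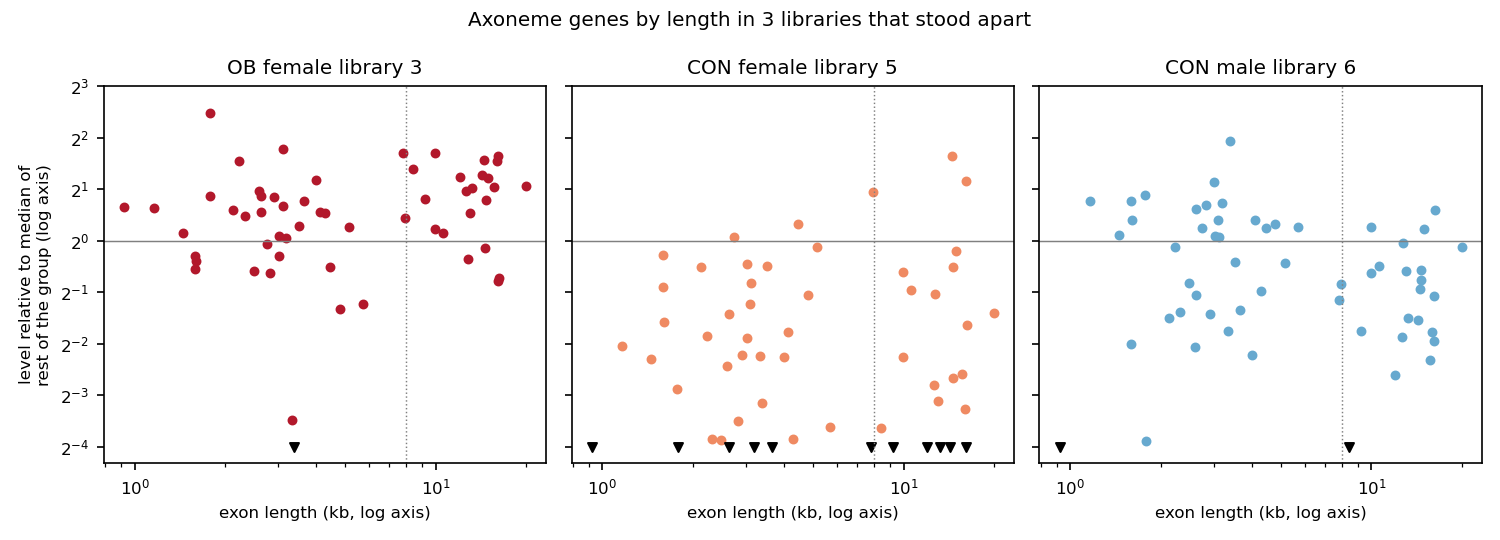
Ratio of each member's CPM in 1 library to the median of the rest of its group (vertical, log axis) against exon length in kb (horizontal), for OB female 3, CON female 5 and CON male 6; the dotted line is 8 kb, and triangles mark ratios below the axis. Members longer than 8 kb had median ratios of 2.03, 0.167 and 0.523 in these libraries.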

How the data were processed

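Per the labels' protocols, total RNA of hypothalamus was isolated with an RNAqueous kit and made into TruSeq libraries. The submitters' processing notes name build mm10 and the tools edgeR, Subread, FastQC and TopHat2 (version 2.0.13). The counts deposited by the authors are whole read pairs per gene, not normalized, made per the file headers with featureCounts 1.6.2 on Ensembl GRCm38 release 94, both ends mapped, mapping quality of at least 10, reverse strand. The command asks for neither multi-mapping nor multi-overlapping reads, so near copies (Dnah7a, Dnah7b and Dnah7c, Rsph3a and Rsph3b) and genes overlapping on 1 strand lose pairs.

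All 31 columns matched library titles and 0 were unused. Of 54532 gene IDs, 54409 matched a symbol. Replicate numbers were given in accession order and pair nothing. From the counts, edgeR 4.0.16 (R 4.3.3) gave TMM-scaled CPM. Its filterByExpr kept 18743 genes (18694 over 26 libraries), and quasi-likelihood tests were run with 1 mean per group over all groups. p-values were adjusted with the Benjamini-Hochberg method over all genes tested, with a threshold of 0.05, and intervals are 95%. Counting error alone limits a library to steps of 1 pair, and levels of low genes are the least precise. The fit was tested on simulated data for the diet contrast in males alone. DESeq2 1.42.0, RLE factors, no filter, leaving out single libraries and sets of libraries were alternatives. A library stood apart when its median Spearman correlation with the others, over genes with a read, fell short of the median over libraries by more than 3 median absolute deviations. Tables and figures used Python 3.11.15, pandas 2.3.3, numpy 2.4.6 and matplotlib 3.10.9.

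The members and gene lists were chosen with earlier results of these data known. Named were members past the threshold or, where fewer than 5 passed, the 5 of smallest p in a contrast, a list of structural members (Foxj1, main arm, spoke, central pair and doublet genes), and the 3 at each end of level per length and of coefficient of variation. Members named beyond these, among them the 12 and the 7 under an unadjusted p of 0.05 over 26 libraries, were chosen after their values were seen. Roles were assigned from general knowledge. Sequences are RefSeq's for GRCm38.p6, and exons and UTRs are GENCODE M21's.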

Additional observations from a re-analysis of the deposited data

Results flagged for a closer look

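In each group of 7 or 8 libraries, the highest or lowest library was set against the rest with Dixon's test, for each member named by the rule and 2 summaries, 168 tests in all. Chance alone marks about 1 in 20 of such groups, and 37 were marked. Some members were named for a small p or a high coefficient of variation in these same values, and the tests share libraries. The 37 therefore cannot be read against that rate.

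OB female 3 was marked as the highest of its group for 13 members: Cfap157 (10.6 CPM), Cfap43 (32.96), Cfap44 (40.6), Cfap46 (39.3), Cfap54 (30.5), Cfap65 (70.0), Dnaaf3 (12.5), Dnah10 (30.2), Dnah11 (19.9), Dnah12 (17.7), Dnah2 (19.9), Dnah7b (24.4) and Rsph10b (25.3 CPM). It was also the highest for other members that the test did not mark, such as Foxj1 and Dnah5.

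CON female 5 was set off in 11 cases. The summed level of all members was 386 CPM there, and the members' median relative level 0.215. It was marked as the lowest of its group for Cfap126 (1.62 CPM), Cfap206 (0.568), Cfap46 (1.05), Cfap54 (2.38), Dnah10 (0), Dnah5 (1.76), Rsph4a (1.11) and Rsph9 (10.9 CPM), and as the highest for Dnah11 (19.98 CPM).

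CON male 6 was marked as the highest of its group for Cfap298 (44.2 CPM) and Dnaaf2 (3.95 CPM), and as the lowest for Cfap44 (0.439 CPM), Cfap46 (6.19 CPM), Dnah5 (2.31 CPM) and Dnah9 (4.23 CPM).

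Only 7 cases lay in other libraries, each the highest of its group. In OB female 6 these were Cfap299 (3.64 CPM), Rsph6a (0.477 CPM) and Rsph9 (39.5 CPM). The rest were Cfap36 in OB male 8 (110 CPM), Cfap53 in OB male 3 (4.28 CPM), Rsph3a in OB male 7 (25.95 CPM) and Cfap97d1 in CON male 7 (0.0629 CPM, its 2 pairs).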

How the results depend on the processing

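No paired analysis was possible because the labels give no replicate numbers, and those used here follow accession order. Members called stayed at 0 in all 5 contrasts under each alternative run. Over all genes, DESeq2 called 6 in females, 1 in males, 6 for the interaction, 12 between the sexes among OB offspring and 1 among CON offspring, where edgeR called 0 in each.

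Between the sexes among OB offspring, edgeR called 14 genes without the 5 libraries in doubt, 1 without the 3 that stood apart, 15 without 7 libraries (2 more below the correlation limit over genes tested) and 9 without the 2 against their sex label. Leaving out single libraries gave 0 to 9, with 9 without CON female 7, 3 without CON male 7 and 2 without CON male 6. Among CON offspring these counts were 11 without the 5, 11 without the 7 and 10 without the 2, and 0 to 6 without single libraries, with 6 without CON female 7 and 1 without CON male 7.

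The members' median log2 fold change in females was 0.052 without the 5 and 0.056 without the 3. Leaving out single libraries gave 0.15 to 0.29 in females (0.15 without OB female 3, 0.17 without CON female 5) and -0.24 to -0.12 in males (-0.12 without CON male 3). For the interaction it gave 0.31 to 0.47, for the sexes among OB offspring 0.12 to 0.29 (0.12 without OB female 3), and among CON offspring -0.26 to -0.057 (-0.057 without CON female 5, -0.12 without CON male 3). Members lower in males at an unadjusted p under 0.05 numbered 12 without the 5 (276 of 18694 genes) and 14 without the 3 (303 of 18825). They numbered 8 without the 7 (235 of 18868) and 2 without the 2 against their sex label (707 of 18581). Over all libraries there was 1 (477 of 18743).

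Signs turned for 14 values of named members, none past the threshold. Without the 5 these were, in females, Cfap157 (-0.12), Cfap20 (0.062), Cfap299 (-0.12), Cfap52 (-0.095), Rsph1 (-0.046) and Rsph10b (-0.12). In males they were Dnaaf2 (0.28) and Dnah17 (-0.19), and for the interaction Cfap298 (-0.029) and Dnaaf2 (-0.31). RLE factors turned Dnaaf2 in females (0.00016). Dropping 2 libraries whose titles hold 2 numbers turned Dnaaf2 in females (0.035), Rsph3a in males (0.0067) and Dnah14 for the interaction (0.085). The cause was not tested. Depth limits the low members most, such as Dnah14, Dnah17 and Cfap99.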
